A study of Caenorhabditis elegans with 12 samples.

Results

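The let-7 sisters of C. elegans were described, that is let-7, miR-48, miR-84 and miR-241. Their members were taken by name from the miRNA count table, as every row that names a 5p or 3p arm of these 4 precursors. This gave 8 arms of 263 miRNA names, with 4 main 5p products (cel-let-7-5p, cel-miR-48-5p, cel-miR-84-5p and cel-miR-241-5p, written without the species prefix from here on) and their 4 3p partners (cel-let-7-3p among them), and all 8 passed the filter on low counts in every comparison. The 12 small RNA libraries came from whole wild type N2 worms, so all groups share this strain and all cell types are pooled. L4 larvae were put on nematode growth medium with OP50 bacteria and kept for 5 d at 20 °C, with 3 libraries a group. Control worms got no addition. The high-glucose-induced (HGI) worms of the Glu group got 2% glucose, those of the DMSO + Glu group got 2% glucose with 0.1% DMSO, and those of the Nar + Glu group got 2% glucose with 25 μM naringin (Nar), a citrus flavanone glycoside, in 0.1% DMSO. Every group other than Control therefore carries glucose, and the solvent control of Nar + Glu is DMSO + Glu.

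miRNAs guide the silencing complex to target mRNAs through bases near their 5′ end, and the mature 5p arms of the sisters carry the same start, the one that also defines let-7 in humans. In C. elegans they are heterochronic genes, which set the timing of larval cell fates. miR-48, miR-84 and miR-241 act together at an early larval step through the transcription factor gene hbl-1, and let-7 acts later, through lin-41, at the switch from larva to adult. The worms sequenced here were exposed from L4, and the mature sisters were present in all 12 libraries.

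The 4 precursors lie on the minus strand in the WBcel235 annotation, each between protein-coding genes and overlapping no other annotated gene. let-7 lies on chromosome X from 14744173 to 14744271, with let-7-5p at 14744234 to 14744255 (22 bases) and let-7-3p at 14744191 to 14744212. mir-84 lies on the same chromosome from 16022404 to 16022478, between nhx-1 and mboa-1, and its 5p arm of 24 bases takes 16022447 to 16022470. mir-48 (14364412 to 14364509) and mir-241 (14366188 to 14366283) are neighbours on chromosome V with 1678 bases between them, and Y49A3A.4 and unc-39 are the nearest protein-coding genes. The miR-48-5p arm takes 14364472 to 14364494, and the miR-241-5p arm takes 14366248 to 14366268.

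Library totals ran from 2640879 to 5868806 counts, with Control highest (4990586 to 5868806) and Nar + Glu lowest (2640879 to 3141140). The TMM scaling factors stood apart for Nar + Glu, at 1.18 to 1.33 against 0.758 to 1.03 in the other 9 libraries. The share of all counts taken by miR-1-3p, the muscle miRNA, moved with that group, at 28.9% to 34.6% in Nar + Glu and 38.1% to 48.2% elsewhere. Markers of embryos and germline (the 8 3p arms of the miR-35 family, 10.1% to 16.3% in sum), intestine (2 miRNAs, 0.132% to 0.249%) and neurons (2 miRNAs) were above 0 in every library. The intestine sum, a share before TMM scaling, was 0.233% to 0.249% in Nar + Glu and at most 0.199% elsewhere. After TMM its 2 miRNAs went opposite ways. Against DMSO + Glu, miR-60-3p was higher in Nar + Glu (log2 fold change 0.19) and miR-243-3p lower (−0.24), both without overlap. Neither was called by the rule given below. The neuron sum was 0.00194% to 0.00261% in Nar + Glu, above the 0.000922% to 0.0013% of DMSO + Glu and the 0.000852% to 0.0012% of Control, and overlapping with the 0.001% to 0.00214% of Glu. This sum is also a share before TMM scaling, and it rests on few counts. After TMM, miR-124-3p (log2 fold change 0.65) and lsy-6-3p (0.49) were not called by the same rule in Nar + Glu against DMSO + Glu. The part of these shifts in the shares of muscle, intestine and neuron miRNAs in the results below was not tested. In the results below, levels are the CPM (a library's counts set to the same total) after TMM scaling, written TMM CPM, and a miRNA was called when its Benjamini-Hochberg adjusted p over all miRNAs tested, from edgeR's quasi-likelihood test, was under 0.05. In whole worms, fewer cells that express a miRNA and less of it per cell cannot be told apart.

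The sisters differed widely in abundance. miR-48-5p was the 14th most abundant miRNA by its mean share of the counts (1.29%), with 29204 to 137160 counts a library. miR-84-5p ranked 28 (0.289%), let-7-5p ranked 41 (0.158%) and miR-241-5p, the neighbour of miR-48 in the genome, ranked 63 (0.0362%, 598 to 3979 counts). The 3p arms were scarce, at ranks 114 to 147, and none went above 295 counts in a library, so their values carry more counting error than those of the 5p arms. Before any scaling, the Control libraries gave 2.17% to 2.94% of their counts to the 4 5p arms together. The Glu libraries gave 1.22% to 2.16%, while DMSO + Glu held 1.35% to 1.54% and Nar + Glu held 1.45% to 1.62%. Every Control library was thus above every library of the other groups, although the highest Glu library came within a small margin of the lowest Control one.

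let-7-5p, the sister of the larva-to-adult switch, was at 1907, 2464 and 1796 TMM CPM in the Control libraries 1 to 3, and at 2172, 1654 and 2377 in Glu. It was at 1609, 1570 and 1349 in DMSO + Glu, and at 901, 759 and 1067 in Nar + Glu. Control and Glu overlapped, DMSO + Glu lay below both, and Nar + Glu lay below all other libraries. In plain CPM, scaled by the library total without TMM, the ranges were 1388 to 1513 in DMSO + Glu and 984 to 1420 in Nar + Glu, which overlap.

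miR-48-5p, the most abundant sister, was at 16338, 20630 and 24710 TMM CPM in Control, and at 10267, 11028 and 16098 in Glu. It was nearly constant in DMSO + Glu, at 10910, 10802 and 10857, and lower in Nar + Glu, at 9749, 8164 and 8307. The order of the group means was Control, Glu, DMSO + Glu and Nar + Glu, and only Glu and DMSO + Glu overlapped as neighbours. miR-241-5p followed the same order. Its Control levels were 449, 540 and 717 TMM CPM, and those of Glu were 340, 323 and 580. DMSO + Glu held 304, 314 and 316, and Nar + Glu held 198, 147 and 236. Control and Glu overlapped for miR-241-5p, whereas the lower steps did not.

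miR-84-5p, which shares the early larval role of miR-48 and miR-241, varied least. Control held 3245, 3384 and 3880 TMM CPM of it and Glu held 3245, 3047 and 3255. The levels were 2643, 2804 and 2416 in DMSO + Glu, against 2270, 2130 and 2519 with Nar. Its group means had the same order under TMM, with Glu above DMSO + Glu without overlap and overlap at the other steps. In plain CPM, the Nar + Glu mean was above that of DMSO + Glu for miR-84-5p (2931 and 2497) and miR-48-5p (11050 and 10363). For miR-241-5p it stayed below (246 and 298).

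Replicate 3 was the highest library for the clustered pair, miR-48-5p and miR-241-5p, in both groups without DMSO. Glu replicate 3 was the highest Glu library for all 4 5p arms and held 1.80 times the miR-241-5p level of the lowest Glu library, and Control replicate 3 held 1.60 times that of the lowest Control library. Calls that change without these libraries are given with and without them.

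**Figure D1:**
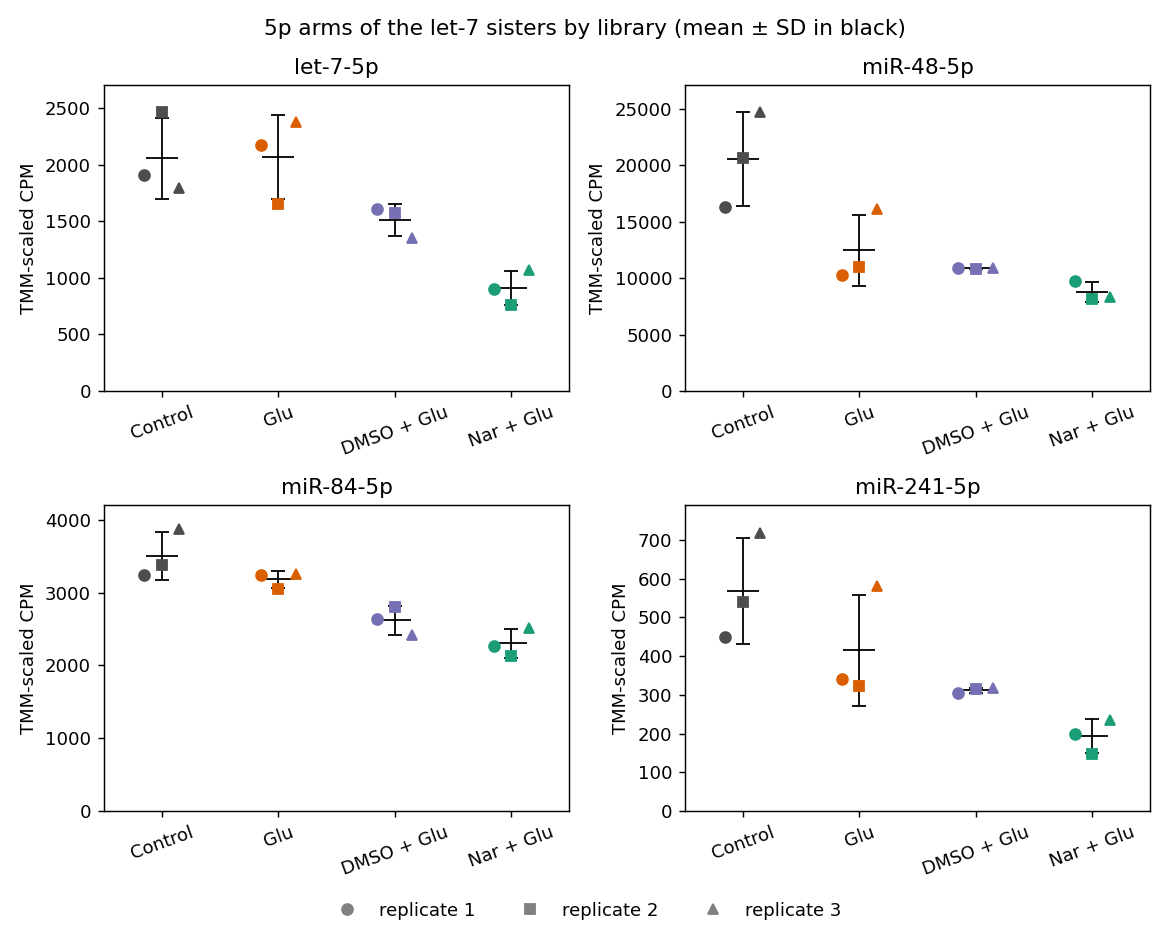
Levels of the 4 5p arms in TMM-scaled CPM (y axis, from 0) in the 3 libraries of each group (x axis), with symbols for the replicate number and mean ± SD in black. let-7-5p in Nar + Glu sits at 759 to 1067, below every other library (in plain CPM it overlaps with DMSO + Glu), and miR-48-5p in Control sits at 16338 to 24710, above every other library.

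The question of which sisters differed among the conditions at all was put to the 12 libraries together. Of 225 miRNAs tested, 39.6% were called in this fit, and 7 of the 8 arms were. The smallest adjusted p among them was that of let-7-5p (6.11e-05), followed by miR-48-5p (8.81e-05), miR-241-5p (0.000128) and miR-84-5p (0.00256). The 3p arms gave adjusted p-values of 0.00533 (miR-48-3p), 0.0110 (let-7-3p), 0.0151 (miR-241-3p) and 0.0666 (miR-84-3p, not called). With scaling by the library totals, 52.9% of all miRNAs were called and 3 of the 8 arms were.

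The effect of Nar in HGI worms was read from Nar + Glu against DMSO + Glu. Under TMM, let-7-5p and miR-241-5p were downregulated most among the 5p arms, miR-48-5p less so, and all 4 3p arms had negative values of similar size. Of the 219 miRNAs tested, 11.9% were called lower, against 6 of the 8 arms, and no arm was called higher (9.59% of all miRNAs). let-7-5p fell from a mean of 1509 ± 140 to 909 ± 154 TMM CPM (SD, n = 3 each), a log2 fold change (log2FC) of −0.75 ± 0.14 (SE, adjusted p = 0.00215), the 4th most negative of the 219. miR-241-5p fell from 311 ± 6.65 to 193 ± 44.5 TMM CPM, with a log2FC of −0.71 ± 0.16 (adjusted p = 0.0048). miR-48-5p had a log2FC of −0.34 ± 0.11 (adjusted p = 0.0436), and miR-84-5p, with −0.21 ± 0.12 (adjusted p = 0.244), was not called.

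Among the 3p arms, miR-84-3p had a log2FC of −0.63 ± 0.13 (adjusted p = 0.0048), although its 5p partner was not called. miR-241-3p (−0.58, adjusted p = 0.0489) and miR-48-3p (−0.52, adjusted p = 0.0268) were called as well, and let-7-3p (−0.50, adjusted p = 0.0886) was not. The libraries of the 2 groups did not overlap, with Nar + Glu lower, for 6 of the 8 arms under TMM (17.8% of all miRNAs) and for 0 of 8 in plain CPM (0.457%). At the thresholds of the study's methods, a 1.5-fold change and an unadjusted p under 0.05, 3 arms were lower (4.57% of all miRNAs).

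These directions depended on the scaling. With library totals in place of TMM, the median log2FC over all 219 miRNAs moved from −0.06 to 0.37, none of the 8 arms was called lower (0.913% of all miRNAs were), and miR-48-5p (0.09) and miR-84-5p (0.23) turned positive. The change of scaling shifts every log2FC of a comparison by nearly the same amount. Values and ranks relative to the median miRNA therefore stay nearly fixed by construction and are no separate support for the directions. The median over the 8 arms, relative to it, was −0.48 under TMM and −0.49 with library totals. let-7-5p was 0.69 log2 units below the median miRNA under TMM and 0.68 below it with library totals, and it kept its place as 4th most negative. miR-241-5p was 0.65 below under either scaling and ranked 6 each time. The relative value of miR-84-5p was −0.14 under both.

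Of the 18 other settings tried, let-7-5p was called in 17 and miR-241-5p in 16, whereas miR-48-5p was called in 2 and miR-241-3p in 2. Both the processing and single libraries changed how many arms passed. With DESeq2 size factors, without miR-1-3p and with no filter, only let-7-5p, miR-241-5p, miR-48-3p and miR-84-3p were called. The same arms alone were called after thinning, with the replicate number as a block and with all entries kept. DESeq2 added miR-48-5p to these, and edgeR's exact test called the same 6 arms as the main fit. The count of 6 became 3 without DMSO + Glu replicate 2 or Nar + Glu replicate 1 and 2 without DMSO + Glu replicate 3 or Nar + Glu replicate 2, and let-7-5p was called each time. miR-241-5p lost its call without DMSO + Glu replicate 3 (log2FC −0.65, adjusted p = 0.0531). When Glu served as the reference instead, let-7-5p (−1.11, adjusted p = 0.00986) and miR-241-5p (−1.02, adjusted p = 0.0268) were the 2 arms called.

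**Figure D2:**
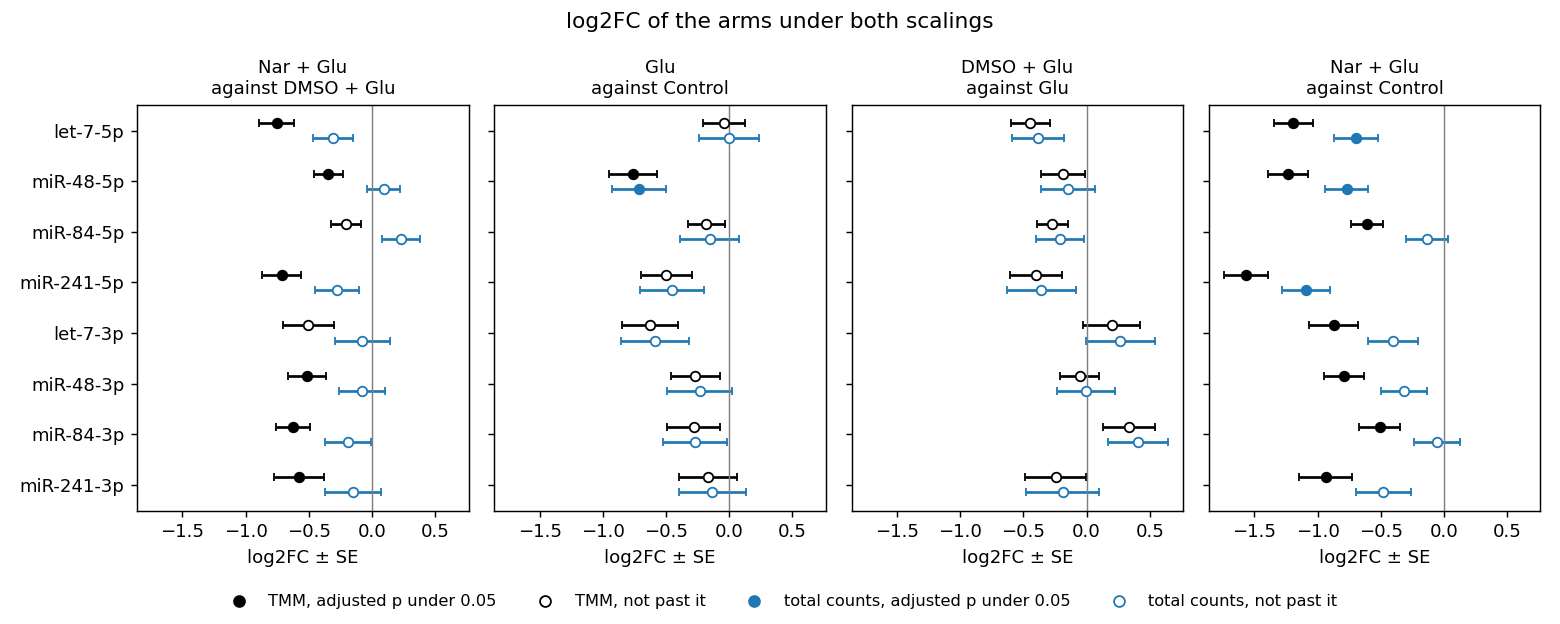
log2FC ± SE (x axis) of the 8 arms (y axis) in the 4 comparisons (panels), under TMM in black and with library totals in blue, filled where the adjusted p was under 0.05. In the panels with Nar + Glu, library totals shift all arms to the right, so that miR-48-5p and miR-84-5p change sign against DMSO + Glu and let-7-5p, miR-48-5p and miR-241-5p stay called against Control.

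High glucose alone was read from Glu against Control. miR-48-5p was downregulated, and it was the 1 arm of 8 called, where 4.93% of the 223 miRNAs tested were called lower. Its mean level fell from 20559 ± 4186 to 12464 ± 3170 TMM CPM (SD, n = 3 each), with a log2FC of −0.76 ± 0.19 (SE, adjusted p = 0.00842) and no overlap between the groups. The value was −0.71 with library totals (adjusted p = 0.0194), where 4.04% of all miRNAs were called lower. let-7-5p gave −0.04 ± 0.16 (adjusted p = 0.91) and miR-84-5p gave −0.18 ± 0.15 (adjusted p = 0.455). miR-241-5p gave −0.50 ± 0.20 (adjusted p = 0.103) and let-7-3p −0.63 ± 0.22 (adjusted p = 0.0702). The median of the 8 arms was −0.28, beside −0.0019 for all miRNAs.

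Here the call of miR-48-5p hung on single libraries. It was lost without Control replicate 3 (log2FC −0.62, adjusted p = 0.183), without Glu replicate 1 (−0.63, adjusted p = 0.106) and without Glu replicate 2 (−0.71, adjusted p = 0.121). Without Glu replicate 3, the library with the highest miR-48-5p and miR-241-5p levels of its group, the calls over all miRNAs rose from 19 to 44 (20 of them lower). The 3 arms among them were miR-48-5p (−0.93, adjusted p = 0.000882), miR-241-5p (−0.76, adjusted p = 0.000894) and let-7-3p (−0.74, adjusted p = 0.0195). The same 3 were called, of 30 miRNAs in all (18 lower), with Control replicate 3 and Glu replicate 3 both left out. That setting was chosen after the levels were seen. The study's thresholds gave 2 arms, where 8.52% of all miRNAs were past them in this direction.

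The solvent was read from DMSO + Glu against Glu. None of the 215 miRNAs was called by edgeR's quasi-likelihood test (0%) or by DESeq2 and 1 was called by edgeR's exact test, while 22 had an unadjusted p under 0.05. let-7-5p was the lowest of the arms, with a log2FC of −0.44 ± 0.16 (adjusted p = 0.302), and its libraries did not overlap under TMM or in plain CPM. miR-241-5p gave −0.40 ± 0.21 (adjusted p = 0.459), miR-84-5p −0.27 ± 0.12 (adjusted p = 0.459) and miR-48-5p −0.19 ± 0.18 (adjusted p = 0.679). The 3p arms ran from −0.25 (miR-241-3p) to 0.34 (miR-84-3p). Under TMM, 3 of the 8 arms were lower without overlap, where 9.3% of all miRNAs were. Without Glu replicate 3, 12 miRNAs were called, none of them an arm of the sisters, and the value of miR-48-5p turned to 0.08.

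The whole distance between treated HGI worms and untreated worms was read from Nar + Glu against Control, which shares its libraries with the comparisons above. All 8 arms were called lower, where 24.2% of the 223 miRNAs tested were. miR-241-5p had a log2FC of −1.56 ± 0.18 (adjusted p = 3.91e-06), the most negative of the 223. miR-48-5p followed at rank 3 with −1.24 ± 0.16 and let-7-5p at rank 4 with −1.19 ± 0.15 (adjusted p = 1.31e-05 for both), whereas miR-84-5p gave −0.61 ± 0.13 (adjusted p = 0.000903). The 3p arms lay at −0.94 (miR-241-3p), −0.87 (let-7-3p), −0.79 (miR-48-3p) and −0.51 (miR-84-3p). With library totals the median of all miRNAs moved from 0.03 to 0.49, and 3 arms stayed called (3.14% of all miRNAs were called lower), namely miR-241-5p (−1.09), miR-48-5p (−0.77) and let-7-5p (−0.70), with ranks of 1, 3 and 4. Relative to the median miRNA, miR-241-5p was 1.59 log2 units lower under TMM and 1.57 lower with library totals. The likeness of these values and ranks again follows from the nearly even shift between scalings.

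Other miRNAs grouped with let-7 by sequence, and lin-4 with miR-237, were set beside the sisters. The further C. elegans miRNAs grouped with let-7 by the start of the mature sequence (miR-793, miR-794, miR-795 and miR-1821) have 6 listed arms, of which 5 passed the filter. By edgeR's quasi-likelihood test under TMM none of the 5 was called in any of the 4 comparisons, and their log2FC in Nar + Glu against DMSO + Glu ran from −0.23 to 0.09 with a median of −0.20. With library totals that median was 0.24, and miR-1821-3p was called higher in Nar + Glu, with a log2FC of 0.53 against DMSO + Glu (adjusted p = 0.0491) and 0.85 against Control (adjusted p = 0.00299). miR-1821-3p was also called higher in Glu against Control without Glu replicate 3 (0.78, adjusted p = 0.0211) and with all 12 libraries in 1 fit (0.68, adjusted p = 0.0297), beside 0.64 in the fit of the 6 libraries (adjusted p = 0.079). Without Nar + Glu replicate 3, miR-793 was called lower in Nar + Glu against DMSO + Glu (−0.51, adjusted p = 0.0227) and against Control (−0.64, adjusted p = 0.00326). All 5 were far scarcer than the 5p arms of the sisters, with at most 226 counts in a library. lin-4, the earlier heterochronic miRNA that represses lin-14 and lin-28, and miR-237, which shares its start, have 4 listed arms, and 3 passed the filter. In Nar + Glu against DMSO + Glu all 3 were called lower under TMM, with a log2FC of −0.80 ± 0.14 (adjusted p = 0.00167) for miR-237-5p, −0.76 ± 0.15 (adjusted p = 0.00333) for miR-237-3p and −0.48 ± 0.12 (adjusted p = 0.0112) for lin-4-5p. With library totals miR-237-5p alone of the 3 was called (−0.38, adjusted p = 0.035). It was also the 1 arm left without DMSO + Glu replicate 3, where miR-237-3p had an adjusted p of 0.0531 and lin-4-5p of 0.0662. lin-4-5p lost its call without DMSO + Glu replicate 2 (adjusted p = 0.14), Nar + Glu replicate 1 (adjusted p = 0.0825) or Nar + Glu replicate 2 (adjusted p = 0.0566) as well. It was also not called with a mean count of at least 100. With Glu as the reference none of the 3 was called, and the values were −0.52 (adjusted p = 0.0592) for miR-237-5p, 0.01 (adjusted p = 0.96) for miR-237-3p and −0.41 (adjusted p = 0.071) for lin-4-5p. Against Control, Nar + Glu was lower by the same test for miR-237-5p (−0.81), miR-237-3p (−0.61) and lin-4-5p (−0.33, which turned to 0.15 with library totals). None of the 3 was called there with library totals, and lin-4-5p lost its call without Control replicate 2 or any single Nar + Glu library (adjusted p of 0.0749 to 0.1), by edgeR's exact test (adjusted p = 0.0604) and with all 12 libraries in 1 fit (adjusted p = 0.0567). Its call was lost too with the replicate number as a block and with all entries kept. edgeR's quasi-likelihood test called no arm of lin-4 or miR-237 in Glu against Control or in DMSO + Glu against Glu, but miR-237-3p rested on Glu replicate 3. In Glu against Control its log2FC was −0.59 (adjusted p = 0.0702) with that library and −0.73 (adjusted p = 0.00645) without it, and edgeR's exact test (adjusted p = 0.0479) and the fit of all 12 libraries (adjusted p = 0.0452) called it too. In DMSO + Glu against Glu it was 0.68 (adjusted p = 0.287) with that library and 0.93 (adjusted p = 0.00307) without it.

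The make-up of the family does not move with the scaling of a library, since each sister's share is taken of the summed counts of the 4 5p arms. The 4 shares add up to 100%, so they are not independent of each other. miR-48-5p held most of the family in every library. Its share was 76.8 ± 2.51% (SD, n = 3 here and below) in Control and 68.3 ± 4.05% in Glu. DMSO + Glu held 71.0 ± 1.52% and Nar + Glu held 71.9 ± 3.04%, and every Control library was above every library of Glu and of Nar + Glu.

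The let-7-5p share went the other way with glucose, although the mean let-7-5p level was 2056 TMM CPM in Control and 2068 in Glu. The level of miR-48-5p, the largest part of the sum, was lower in Glu. The let-7-5p share was 7.86 ± 1.82% in Control and 11.5 ± 1.78% in Glu, 3.64 percentage points higher in Glu without overlap. DMSO + Glu then held 9.86 ± 0.729% and Nar + Glu held 7.48 ± 1.138%. The last difference, 2.37 percentage points lower with Nar, was again without overlap (9.03% to 10.4% against 6.78% to 8.80%). The miR-241-5p share averaged 2.12% with no addition, 2.24% in Glu and 2.04% in DMSO + Glu. Nar + Glu held 1.59 ± 0.323%, with the ranges of 1.96% to 2.12% and 1.31% to 1.94% just apart. Control worms gave 13.3 ± 1.32% to miR-84-5p, whereas Glu gave 17.9 ± 2.97%, DMSO + Glu 17.1 ± 0.965% and Nar + Glu 19.0 ± 1.73%, so that its mean part of the family was highest in the group where let-7-5p and miR-241-5p had their lowest parts.

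The exact permutation test over all 369600 arrangements of the 12 libraries into groups gave p = 0.0215 for the let-7-5p share, p = 0.0347 for miR-48-5p, p = 0.0379 for miR-84-5p and p = 0.0267 for miR-241-5p. After Benjamini-Hochberg adjustment over the 9 exact permutation tests of this kind (shares and ratios), the lowest adjusted p was 0.068, so none passed 0.05. Between any pair of groups of 3, the exact permutation test cannot go below 0.1, and that smallest p was reached, among others, by the let-7-5p share for Nar and for glucose, by the miR-48-5p share for glucose and by the miR-241-5p share for Nar.

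**Figure D3:**
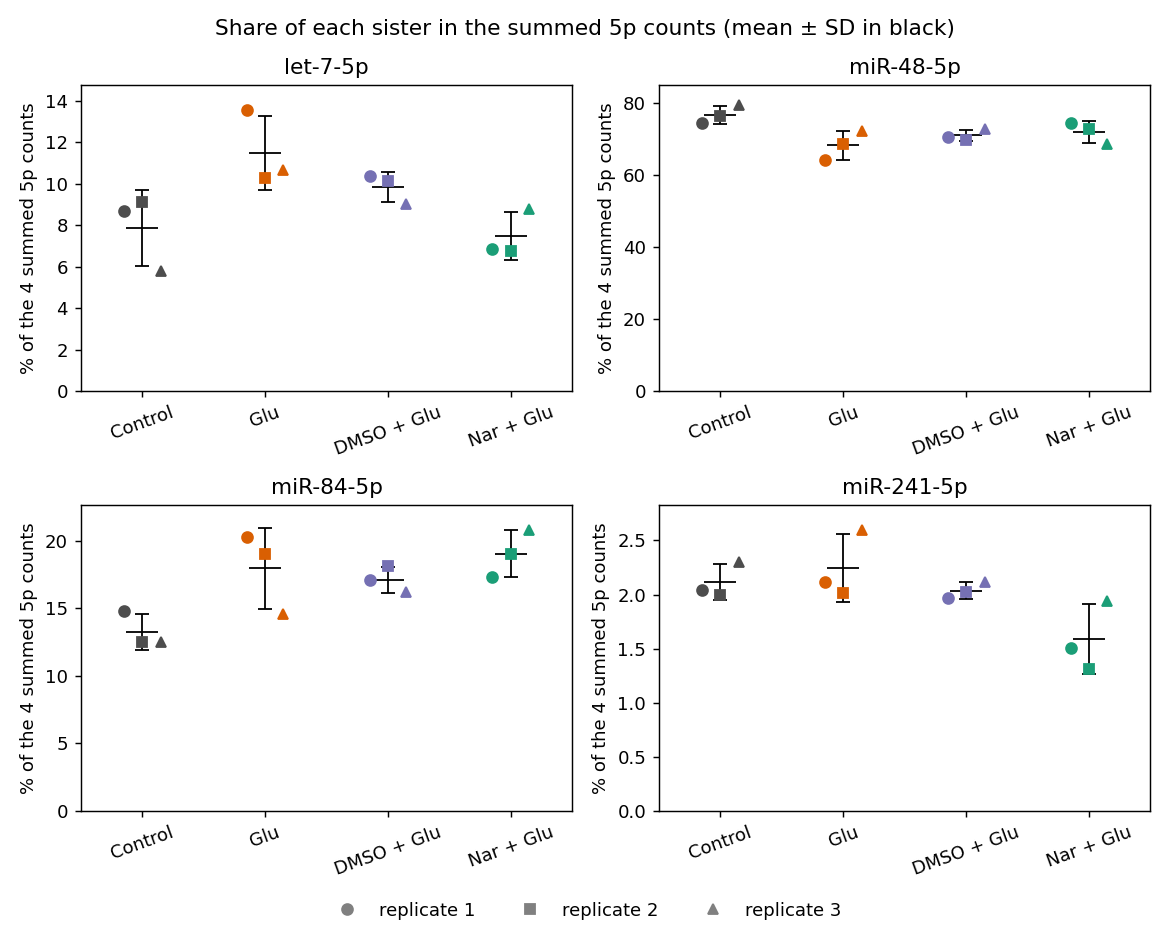
Share of each sister in the summed counts of the 4 5p arms (y axis, in %, from 0) in the 3 libraries of each group (x axis), with mean ± SD in black. The let-7-5p share is 10.3% to 13.6% in Glu and 6.78% to 8.80% in Nar + Glu, and the miR-48-5p share is highest in Control, at 74.5% to 79.4%.

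The 3p arms give a second reading of each precursor. miR-48-3p was at 59.9, 50.9 and 47.6 TMM CPM in Control and at 26.8, 32.9 and 32.1 in Nar + Glu, with DMSO + Glu at 42.3 to 44.5 between them. miR-84-3p had its highest mean in DMSO + Glu, at 45.3, 49.0 and 44.3, and was at 33.6, 28.7 and 29.3 in Nar + Glu. Its DMSO + Glu libraries overlapped with those of Control (38.1 to 50.0) and Glu (24.9 to 46.8). let-7-3p was at 23.6 to 29.6 in Control and 13.1 to 16.3 in Nar + Glu, and miR-241-3p at 21.3 to 31.9 and 11.1 to 14.9. Nar + Glu thus lay below Control without overlap for all 4 3p arms under TMM. With the 5p arms counted in, this held for 8 of 8 arms under TMM (26.5% of all miRNAs) and for 5 of 8 in plain CPM (6.28%).

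**Figure D4:**
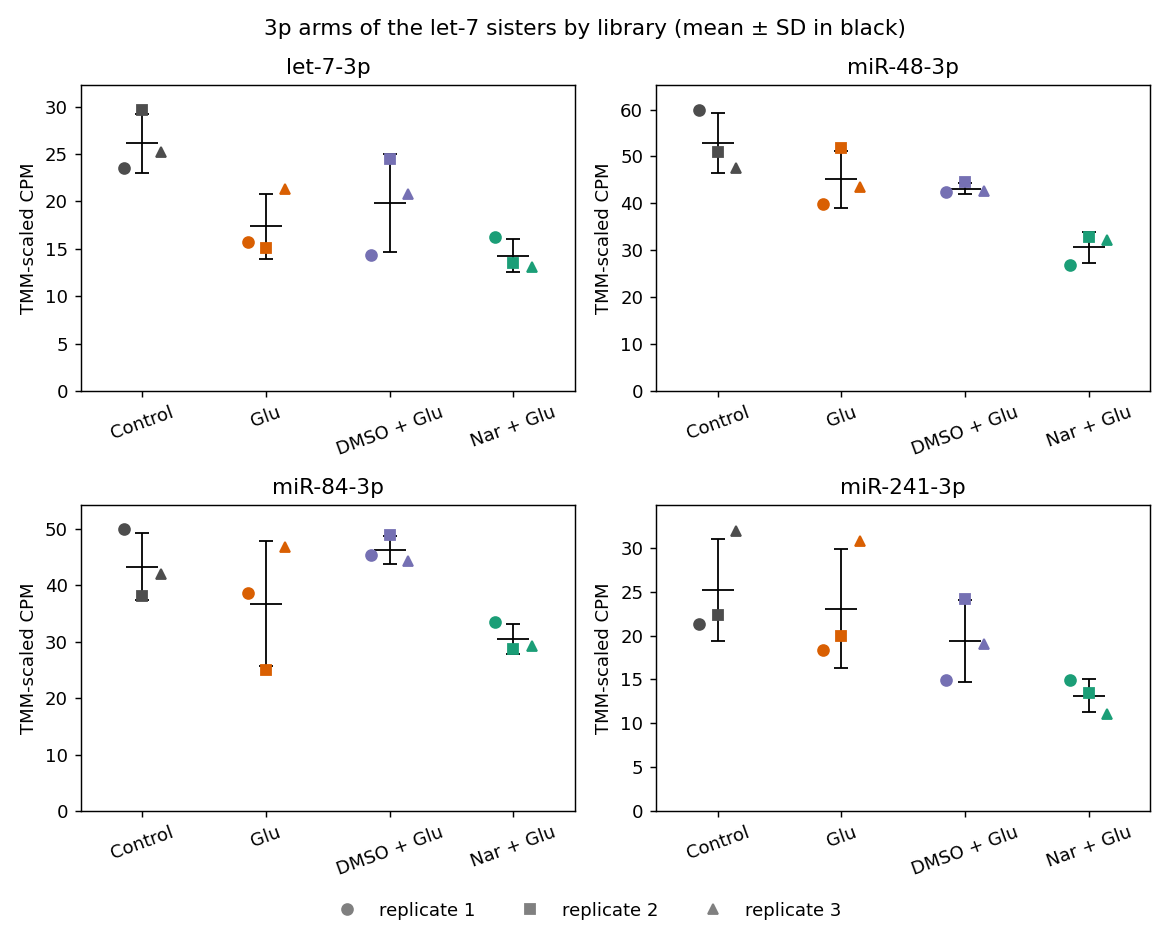
Levels of the 4 3p arms in TMM-scaled CPM (y axis, from 0) in the 3 libraries of each group (x axis), with mean ± SD in black. Nar + Glu is below DMSO + Glu without overlap for miR-48-3p, miR-84-3p and miR-241-3p, and the groups overlap for let-7-3p; in plain CPM they overlap for all 4.

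The 5p to 3p ratio of a precursor, also free of the scaling, was highest for miR-48 (mean log2 ratios of 7.97 to 8.59 by group) and lowest for miR-241 (3.85 to 4.49). For let-7, Control averaged 6.29 ± 0.120 and Glu 6.88 ± 0.186 (SD, n = 3 each), while DMSO + Glu averaged 6.27 ± 0.461 and Nar + Glu 5.97 ± 0.314. This gave p = 0.0455 over the 4 groups by the exact permutation test (0.068 after adjustment over the 9 tests). Every Glu library was above every Control library. let-7-3p was at 15.1 to 21.3 TMM CPM in Glu, below the 23.6 to 29.6 of Control, whereas the let-7-5p ranges overlapped. For miR-84, Glu averaged 6.48 ± 0.412, DMSO + Glu 5.82 ± 0.0503 and Nar + Glu 6.23 ± 0.175, without overlap at either step (exact permutation p = 0.0786 over the 4 groups). The exact permutation p was 0.149 for miR-241 and 0.178 for miR-48.

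**Figure D5:**
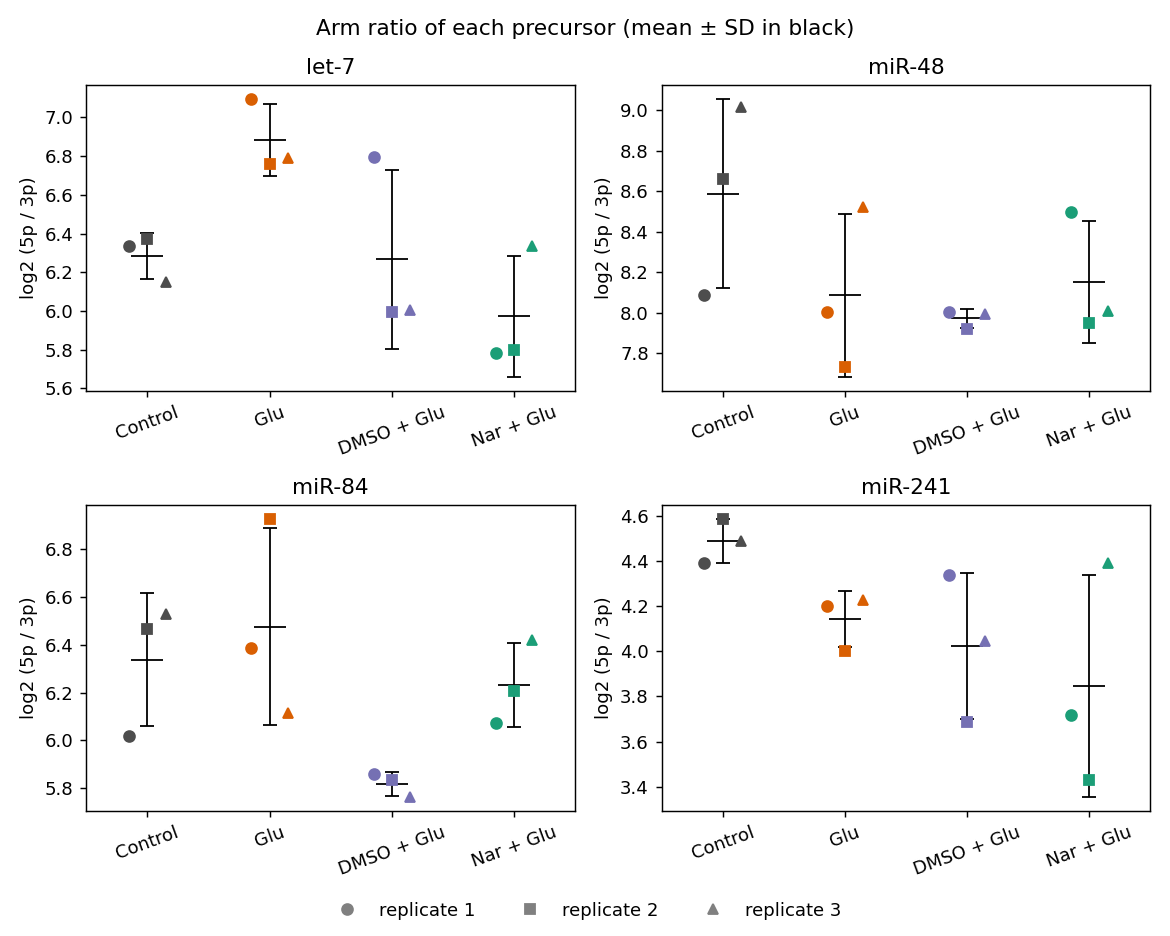
log2 ratio of 5p to 3p counts for each precursor (y axis, not from 0) in the 3 libraries of each group (x axis), with mean ± SD in black. The let-7 ratio is 6.76 to 7.10 in Glu and 6.15 to 6.37 in Control, and the miR-84 ratio is 5.76 to 5.86 in DMSO + Glu, below its values in the other groups.

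The sisters were also compared with the 136 other miRNAs of mean count 100 or more by the Pearson r of log2 TMM CPM over the 12 libraries. These points share library and scaling, so r is a description. miR-241-5p was among the 3 most alike for each of the other sisters, with r of 0.926 for miR-84-5p, 0.921 for miR-48-5p and 0.872 for let-7-5p. The most alike of all was miR-235-3p for let-7-5p (r = 0.901), miR-238-3p for miR-48-5p (r = 0.941) and miR-71-5p for miR-84-5p (r = 0.934). With group means removed, r was 0.834 between the genomic neighbours miR-48-5p and miR-241-5p, 0.676 between miR-84-5p and miR-241-5p, and 0.229 between let-7-5p and miR-48-5p. For the most alike of all, this r was 0.798 (miR-48-5p with miR-238-3p), 0.769 (miR-84-5p with miR-71-5p) and 0.259 (let-7-5p with miR-235-3p).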

How the data were processed

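miRNAs were sequenced in 12 libraries of whole worms, grouped by the sample labels. The authors removed adapters and short reads with Cutadapt 1.14, quantified miRNAs with mirdeep2 and deposited raw counts per mature miRNA, without normalization. Per the labels the genome build is WBcel235. No source used here gives the miRBase release, how many mismatches were accepted or how reads matching more than 1 sister were assigned, so counts of these similar sequences may hold reads of each other. The labels name a poly(A) selection, which the study's methods give for mRNA libraries. Nothing in the labels says that replicates came from separate cultures, so p-values measure only the spread between these libraries. Replicates differed by more than counting noise (chi-square per degree of freedom of 20.4 or more). The lowest value was that of Nar + Glu replicates 1 and 2.

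Both deposited forms of the counts were equal in 12 of 12 libraries. For 5 repeated names the first entry was kept. Counts were tested with edgeR 4.0.16 (R 4.3.3) on the 6 libraries of a comparison, or on all 12 for any difference, with TMM and filterByExpr (count of 10, total of 15). The script was checked on simulated counts. Arm ratios used a pseudocount of 0.5, and likeness a prior count of 2. Exact permutation tests were two-sided. All arms of the 4 precursors were named, as were the lists of other miRNAs grouped with let-7 and of lin-4 and miR-237. For each 5p arm the 3 most alike miRNAs were named too. Members and lists were chosen with earlier results of these data known. Alternatives were DESeq2 (1.42.0) and its size factors, library totals, removal of miR-1-3p, no filter or a mean count of at least 100, thinning to 2640879 counts, all entries kept, all 12 libraries in 1 fit, edgeR's exact test, the replicate number as a block, each library left out and Glu as reference. Figures were drawn with matplotlib 3.10.9. Positions come from the Ensembl WBcel235 annotation.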

Additional observations from a re-analysis of the deposited data

How the results depend on the processing

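The arms called in Nar + Glu against DMSO + Glu (6) numbered 0 with library totals, 3 with a mean count of at least 100, 2 with all 12 libraries in 1 fit, 2 with Glu as reference, 3 at the study's thresholds and 2 to 5 with single libraries left out. With DESeq2 size factors, without miR-1-3p and with no filter, they were let-7-5p, miR-241-5p, miR-48-3p and miR-84-3p alone. The same held after thinning, with the replicate number as a block and with all entries kept. DESeq2 called miR-48-5p besides these, and only edgeR's exact test gave 6 again. The arms called in Glu against Control (1) numbered 2 by edgeR's exact test, 2 at the study's thresholds, 3 without Control replicate 3 and Glu replicate 3, and 0 to 3 with single libraries left out. With library totals, 3 arms were called in Nar + Glu against Control and 3 for any difference. The fit with fewer libraries or other miRNAs changes what is tested, and the cause of each change was otherwise not tested.

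Signs turned as follows. Against DMSO + Glu, library totals gave Nar + Glu values of 0.093 (miR-48-5p), 0.23 (miR-84-5p) and 0.24 (miR-793), and Glu as reference gave 0.014 for miR-237-3p and −0.23 for miR-1821-3p. There miR-793 ran from −0.51 to 0.089 with libraries left out. In Glu against Control, let-7-5p was at 0.013 without miR-1-3p and at −0.14 to 0.12 with libraries left out, where miR-241-3p ran from −0.38 to 0.028. In DMSO + Glu against Glu, lin-4-5p gave 0.044 with library totals, 0.0057 with no filter and 0.00039 with a mean count of at least 100, and −0.11 to 0.081 with libraries left out. There miR-48-3p gave 0.0033 after thinning and −0.13 to 0.11 with libraries left out, miR-48-5p −0.31 to 0.078 and miR-241-3p −0.43 to 0.066. Both replicates 3 left out gave 0.078 and 0.066 for the last pair. In Nar + Glu against Control, library totals gave 0.15 for lin-4-5p and 0.19 for miR-793.

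The F statistic of the let-7-5p share was 3.08 and that of the miR-241-5p share 3.30 when taken as log2 ratios to the geometric mean of the other sisters, and neither was then under 0.05. On that scale the miR-84-5p value for DMSO + Glu against Glu was 0.042 and the miR-241-5p value for Glu against Control −0.20, both of the other sign. With libraries left out, F ran from 3.79 to 5.85 (let-7-5p share), 2.51 to 6.74 (miR-48-5p), 3.06 to 13.0 (miR-84-5p), 2.20 to 7.60 (miR-241-5p), 2.79 to 12.1 (let-7 arm ratio), 2.10 to 5.76 (miR-84 arm ratio), 1.41 to 7.94 (miR-241 arm ratio) and 2.95 to 23.5 (miR-48-5p to miR-241-5p ratio). Differences that changed sign in this way were those of the let-7-5p share in Nar + Glu against Control (−1.42 to 0.25), the miR-48-5p share for Nar (−0.30 to 2.62), the miR-84-5p share for DMSO (−2.50 to 0.33), the miR-241-5p share for glucose (−0.050 to 0.24), and the arm ratios of miR-48 for DMSO (−0.29 to 0.11), miR-84 for glucose (−0.087 to 0.32), miR-241 for Nar (−0.45 to 0.032) and miR-241 for DMSO (−0.28 to 0.047).

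The replicate numbers did not pair the libraries throughout, since 6 of 18 same-numbered pairs deviated together with r over 0.1 (range −0.40 to 0.32). The groups differed in this. For replicates 1 to 3, r was 0.24, 0.074 and 0.30 between Control and Glu, and −0.18, 0.013 and −0.40 between Control and Nar + Glu. Between DMSO + Glu and Glu, r was 0.19, 0.068 and 0.25, and between DMSO + Glu and Control 0.32, −0.025 and 0.081. Between Nar + Glu and Glu it was −0.14, −0.065 and −0.29, and between Nar + Glu and DMSO + Glu −0.18, 0.26 and −0.13. Whether the libraries of any of these groups were paired is not known. With the replicate number as a block, 3 arms and 47 of all miRNAs, miR-237-3p (adjusted p = 0.00958) and miR-1821-3p (adjusted p = 0.0328) among them, were called in Glu against Control, and F was 4.79 (let-7-5p share), 3.89 (miR-48-5p share), 4.58 (miR-84-5p share) and 4.63 (let-7 arm ratio), with p over 0.05.

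Over all miRNAs, the 47 called for Nar became 91 with library totals, 24 with a mean count of at least 100, 25 with all 12 libraries, 27 with the block, 20 with Glu as reference and 17 to 46 with single libraries left out. The 19 called for glucose became 36 with all 12 libraries and 4 to 44 with single libraries left out. With 3 libraries a group, the 3p arms at 39 to 295 counts limit the precision of the arm ratios.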

Other observations

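The ratio of miR-48-5p to miR-241-5p, whose precursors are neighbours, was looked at after the levels were seen. Its mean log2 value was 5.18 ± 0.0745 for Control and 4.93 ± 0.151 for Glu (SD, n = 3 each). DMSO + Glu averaged 5.12 ± 0.0366, and Nar + Glu averaged 5.52 ± 0.340. Control and Glu did not overlap, nor did Glu and DMSO + Glu, whereas Nar + Glu, at 5.14 to 5.80, overlapped with DMSO + Glu (5.10 to 5.17). The exact permutation p over the 4 groups was 0.0253 (0.068 after adjustment over the 9 tests).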
